A study of Homo sapiens with 32 samples.

Results

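The rows of 4 microRNA hairpins, mir-374a, mir-545, mir-374b and mir-421, were examined among the 1513 miRNA rows of a small RNA count table from 293T cells. They were chosen by name because all 4 hairpins lie in FTX, a long non-coding RNA gene of the X chromosome, as 2 pairs of close neighbours. No measured value enters that rule, although earlier results of the same table were known when the rows were chosen. 293T is an established human line of embryonic kidney origin. Of 8 clones of it, 4 (numbered 52, 55, 57 and 67) were labelled wild type and 4 (30, 34, 42 and 43) carried DGCR8 delta103-126Q, a deletion of the reported ERH binding site of DGCR8 made by prime editing. Every clone was transfected with each of 4 short hairpin RNA (shRNA) vectors, control shRNA 1 and 2, which have no target, and ERH shRNA 1 and 2. Puromycin selection at 2 µg/ml and a fluorescence sort on day 5 preceded RNA isolation, which gave 32 libraries in 8 groups of 4 clones. All groups thus share transfection, puromycin and sorting, and cells without any vector are not among them. ERH mRNA and the edited DGCR8 sequence are not measured by a miRNA table, so neither the knockdown nor the genotype was checked here.

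MicroRNAs are cut as hairpins from long primary transcripts by the Microprocessor, which consists of the nuclease DROSHA and the double-stranded RNA-binding protein DGCR8. ERH is a small nuclear protein that binds the N-terminal part of DGCR8, and it is known for helping the Microprocessor to cut poor hairpins that have a better hairpin next to them in the same transcript. FTX belongs to the X-inactivation centre, near XIST. Neighbouring hairpins in 1 intron are cut from the same primary RNA.

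In GENCODE release 29 (GRCh38) FTX is a lincRNA gene on the minus strand of chromosome X, 73946555 to 74293574. The first pair, mir-374a (74287286 to 74287357) and mir-545 (74287104 to 74287209), is separated by 76 bases. The second pair, mir-374b (74218547 to 74218618) and mir-421 (74218377 to 74218461), is separated by 85 bases, and 68485 bases lie between the pairs. In transcript order mir-374a precedes mir-545, and mir-374b precedes mir-421. The first pair lay within 13 of the 18 annotated FTX transcripts and the second within 7, in an intron of each. The pairs resemble each other. The RefSeq hairpins of mir-374a and mir-374b, shown because these members belong to 1 family, were identical at 54 of 71 aligned bases when shifted by 1 base. Capitals mark the 17 bases that differ.
MIR374A hairpin: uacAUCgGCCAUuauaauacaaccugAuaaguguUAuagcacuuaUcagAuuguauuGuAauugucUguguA
MIR374B hairpin: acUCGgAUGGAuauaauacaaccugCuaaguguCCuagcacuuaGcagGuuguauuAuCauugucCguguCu
The mature strands, from RefSeq on GRCh38.p14, follow with the seed (bases 2 to 8, which set most target choice) in capitals.
miR-374a-3p: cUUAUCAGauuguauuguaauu
miR-374b-5p: aUAUAAUAcaaccugcuaagug
miR-374b-3p: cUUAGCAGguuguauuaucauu
miR-545-3p: uCAGCAAAcauuuauugugugc
miR-545-5p: uCAGUAAAuguuuauuagauga
miR-421: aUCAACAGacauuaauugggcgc
The seed of miR-374b-5p also occurs once in the mir-374a hairpin, at bases 13 to 19, where miR-374a-5p is made. The downstream partners resemble each other too, since miR-545-3p and miR-421 were identical at 17 of 22 aligned bases with a shift of 1. Their seeds differ. Entries for miR-374a-5p and the MIR545 hairpin are missing from the sequence table used.

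The hairpins differed in base composition and predicted folding. Their GC content was 31.9% for mir-374a, 38.8% for mir-421, 41.5% for mir-545 and 41.7% for mir-374b, against a median of 47.6% over 471 rows with a mean of at least 10 counts, and 5.31% of those rows were below mir-374a. The minimum free energy predicted by RNAfold, where a more negative value means a more stable fold, was -0.56 kcal/mol per base for mir-374b, -0.48 for mir-374a, -0.41 for mir-421 and -0.34 for mir-545, with a median of -0.47 over the same rows. Within each pair the upstream mir-374 hairpin was thus the more stable fold per base and the downstream partner the less stable. In the first pair this order depends on the division by annotated length. The totals there were -34.5 kcal/mol over 72 bases for mir-374a and -35.6 over 106 for mir-545. In the second pair they were -40.3 over 72 bases for mir-374b and -35 over 85 for mir-421.

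Depth ranged from 1318923 to 6222790 miRNA counts per library, and the 4 spike-in RNAs that had been added to the total RNA gave 9139 to 33090 counts. The 2 libraries of a clone with the same kind of shRNA were summed, and levels are CPM values of those 16 sums after TMM scaling, which assumes that most miRNAs keep their relative level. In such bulk RNA, fewer cells with a miRNA and less of it per cell cannot be told apart. The deepest libraries were those of ERH shRNA 2 in wild-type clone 57 (6222790 counts) and ERH shRNA 1 in wild-type clone 67 (4324633). No other library exceeded 2818603 counts, so 1 vector weighs most in the ERH sums of these clones. Whether this bears on their values was not tested. Reads were 2857 to 18317 per library for mir-374a, 543 to 2993 for mir-374b, 295 to 1471 for mir-421 and 6 to 145 for mir-545, so that counting error weighs most on mir-545. All 4 rows passed the low-count filter in every comparison. Wild-type clone 57 stood apart, with the lowest CPM of the 4 wild-type clones under control shRNAs in each of the 4 rows.

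The 4 rows lay at different levels, but not every gap between rows exceeded the change between conditions. The wild-type mean of mir-374b under ERH shRNAs, 414 CPM, was below that of mir-421 under control shRNAs, 436 CPM. Median shares of the miRNA counts were 0.429% for mir-374a, 0.0563% for mir-374b, 0.0252% for mir-421 and 0.00255% for mir-545, and the mean CPM had the same order in all 4 combinations of genotype and shRNA kind. Under control shRNAs the wild-type means were 4162 ± 1772 CPM for mir-374a, 1012 ± 365 CPM for mir-374b, 436 ± 161 CPM for mir-421 and 22.7 ± 13.2 CPM for mir-545 (SD, n = 4). Levels of different miRNAs also carry the ligation preference of the library kit for each end sequence, so the order of rows is one of counts.

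Both members of the second pair were lower with ERH knockdown under TMM scaling. mir-374b, whose strands belong to the miR-374 family, had CPM of 1183, 1319, 489 and 1058 in wild-type clones 52, 55, 57 and 67 under control shRNAs. Under ERH shRNAs the same clones had 417, 534, 244 and 462 CPM, so that every clone was lower and only clone 57's control level lay within the range of the knockdown levels. In deletion clones 30, 34, 42 and 43 the row was at 695, 839, 888 and 915 CPM under control shRNAs and at 484, 452, 475 and 494 CPM under ERH shRNAs, with no overlap. Over all 8 clones its log2 fold change was -1.09 ± 0.12 (SE), or 0.470 of the control level, with an adjusted p of 4.45e-07 in edgeR's quasi-likelihood test with the clone as a block and Benjamini-Hochberg adjustment over 667 rows. The row was lower in 8 of 8 clones, as were 7.35% of the rows tested, and 4.35% of rows had a lower fold change. Each ERH shRNA against the control shRNA of the same number gave nearly the same value, -1.05 ± 0.14 (SE) for shRNA 1 and -1.09 ± 0.17 (SE) for shRNA 2. With spike-in scaling, which sets the row against RNA added from outside, the log2 fold change was -0.63 (edgeR adjusted p = 0.00949) while the median of all rows moved from 0.061 to 0.52.

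**Figure D1:**
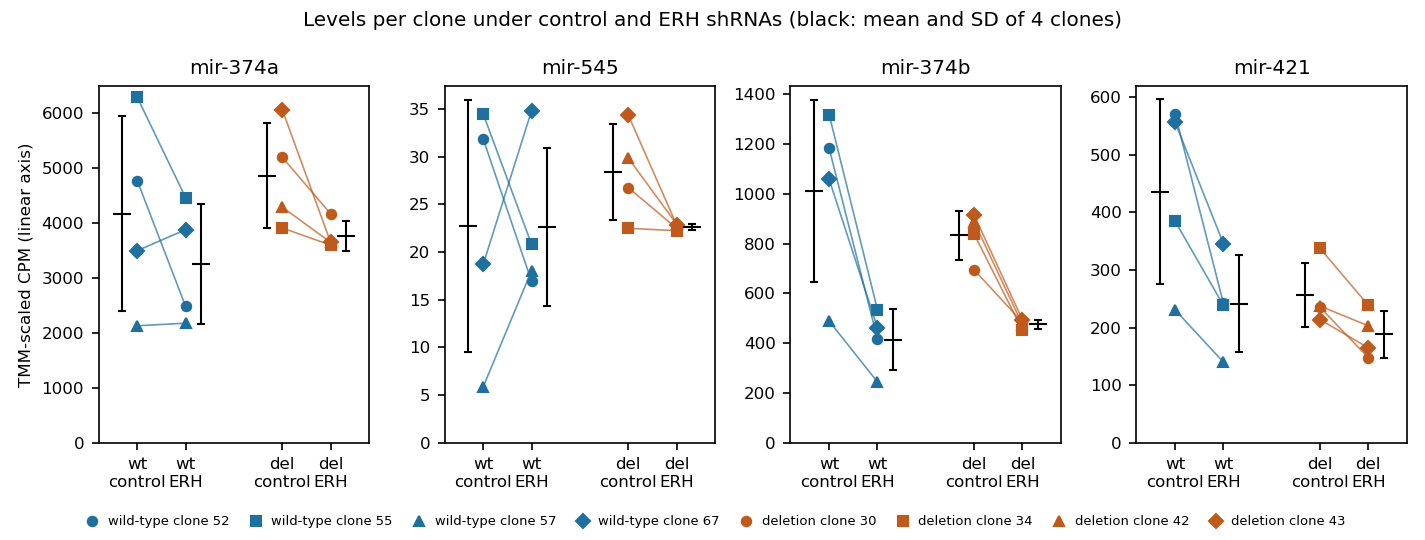
TMM-scaled CPM (linear axes from 0) of the 4 FTX rows in each clone under control and ERH shRNAs, with lines joining the sums of 1 clone (wt, wild type; del, deletion of the ERH binding site) and black marks for the mean and SD of 4 clones. mir-374b and mir-421 were lower under ERH shRNAs in 8 of 8 clones, while mir-374a and mir-545 were higher in wild-type clones 57 and 67 and lower in the other 6. In clones 57 and 67 mir-374a rose by only 0.032 and 0.15 in log2, and mir-545 by 1.62 and 0.90.

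mir-421, reported elsewhere to target the DNA damage kinase ATM, was also lower with the knockdown. Its CPM under control shRNAs were 571, 385, 231 and 557 in wild-type clones 52, 55, 57 and 67, and 242, 239, 140 and 346 under ERH shRNAs. In deletion clones 30, 34, 42 and 43 they were 235, 337, 237 and 214 under control and 148, 239, 203 and 165 under ERH shRNAs. Every clone was lower, but the ranges of the arms overlapped in both genotypes. The log2 fold change over 8 clones was -0.70 ± 0.13 (SE), or 0.615 of the control level (edgeR adjusted p = 0.000265). With spike-in scaling it was -0.24 (edgeR adjusted p = 0.339) and 5 of 8 clones were lower, and without the clone block it was -0.74 (edgeR adjusted p = 0.0786), so neither of these fits kept the call.

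In the first pair 1 of 2 rows passed. mir-374a, the most abundant of the 4 and reported to act on inhibitors of Wnt signalling, had 4759, 6274, 2124 and 3490 CPM in wild-type clones 52, 55, 57 and 67 under control shRNAs and 2475, 4452, 2171 and 3871 CPM under ERH shRNAs. In deletion clones 30, 34, 42 and 43 it had 5187, 3901, 4280 and 6051 CPM under control and 4159, 3590, 3640 and 3643 CPM under ERH shRNAs. It was lower in 6 of 8 clones and higher in wild-type clones 57 and 67, by only 0.032 and 0.15 in log2. Scaled as single libraries, clone 57 was lower under ERH shRNA 1 and 2 (1988 and 2155 CPM) than under control shRNA 1 and 2 (2243 and 2492 CPM). Clone 67 had 4310 and 3433 CPM under ERH shRNA 1 and 2 against 4454 and 2701 CPM under the controls. Its log2 fold change of -0.40 ± 0.11 (SE) passed the threshold (edgeR adjusted p = 0.00813), but this call depended on the processing. With spike-in scaling the value was 0.061 (edgeR adjusted p = 0.827) and with scaling to total miRNA counts -0.12 (0.378). The call was also lost without the clone block (-0.43, adjusted p = 0.185), with shRNA 2 libraries alone (-0.34, 0.197), with a mean of at least 100 counts (-0.27, 0.0556) and without wild-type clone 55 (-0.34, 0.0680). A correction for hairpin GC content, in which this row has 1 of the lowest values, instead gave -0.73 (edgeR adjusted p = 2.99e-05).

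mir-545, reported to target the RNA sensor RIG-I, did not pass the test. Under control shRNAs it had 31.9, 34.5, 5.86 and 18.7 CPM in wild-type clones 52, 55, 57 and 67, and 26.8, 22.5, 29.9 and 34.4 CPM in deletion clones 30, 34, 42 and 43. Under ERH shRNAs the values were 16.9, 20.8, 18.03 and 34.8 CPM, and 22.5, 22.2, 22.9 and 22.9 CPM. It was higher in wild-type clones 57 and 67, by 1.62 and 0.90 in log2, and the remaining 6 clones were lower. The sums of mir-374a had the same signs, but rose by only 0.032 and 0.15 in clones 57 and 67. The log2 fold change was -0.15 ± 0.22 (SE), with a 95% interval from -0.59 to 0.30 (edgeR adjusted p = 0.619), so the interval still holds a fall as large as that of mir-374a. Without clone 57, whose control sum held 18 reads, it was -0.33, and without clone 67, whose control sum held 73, it was -0.31. Without clone 52 or 55 it was -0.042 and -0.030. Under spike-in and total miRNA scaling the value was above 0, at 0.29 and 0.12.

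For the knockdown in 8 clones, 36.6% of 667 rows passed the threshold, 20.1% higher and 16.5% lower, and 3 of the 4 FTX rows were among the lower ones. The balance of all rows depended on the scaling, since 134 were higher and 110 lower with TMM, 233 and 22 with spike-in scaling, and 210 and 36 with total miRNA scaling. Both members of the second pair were below 0 under each of these scalings, whereas mir-374a was above 0 with spike-in scaling and mir-545 with both others than TMM.

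Within genotypes both rows of the second pair passed. In wild-type clones mir-374b had a log2 fold change of -1.34 ± 0.18 (SE, edgeR adjusted p = 2.04e-05) and mir-421 one of -0.92 ± 0.19 (SE, edgeR adjusted p = 0.00123), where 31.3% of 613 rows passed, 20.9% higher and 10.4% lower. mir-374a was at -0.40 ± 0.19 (SE, edgeR adjusted p = 0.114) and mir-545 at 0.067 ± 0.35 (SE, edgeR adjusted p = 0.894). In deletion clones mir-374b was at -0.82 ± 0.11 (SE, edgeR adjusted p = 0.00115) and mir-421 at -0.46 ± 0.12 (SE, edgeR adjusted p = 0.0365), where 10.3% of 633 rows passed, 4.27% higher and 6% lower. There mir-374a was at -0.37 ± 0.11 (SE, edgeR adjusted p = 0.0640) and mir-545 at -0.33 ± 0.16 (SE, edgeR adjusted p = 0.201). Spike-in scaling ended all 4 of these calls, at -0.72 and -0.30 in wild-type and -0.53 and -0.17 in deletion clones for mir-374b and mir-421 (edgeR adjusted p from 0.0913 to 0.679). The mir-421 call in deletion clones was further lost without clone 30, 42 or 43, at -0.39, -0.53 and -0.51, with either shRNA alone, at -0.46 and -0.54, with total miRNA scaling, at -0.28, and without the clone block, at -0.47. Without the block the mir-421 call in wild-type clones was lost too, at -0.89. For mir-374a several alternatives gained a call. After the GC correction it passed in both genotypes, at -0.99 in wild-type and -0.47 in deletion clones, and so it did in DESeq2, at -0.54 (adjusted p = 0.0251) and -0.39 (adjusted p = 0.0161). In wild-type clones it also passed with shRNA 1 alone (-0.42, edgeR adjusted p = 0.0327). In deletion clones it passed with no filter (-0.39, edgeR adjusted p = 0.0258) and without clone 34 (-0.45, edgeR adjusted p = 0.0106). Without clone 57 or 67 the value of mir-545 in wild-type clones was -0.30 and -0.21, and without clone 52 or 55 it was 0.46 and 0.41. Lower and higher calls over all rows were 64 and 128 in wild-type clones with TMM, 11 and 170 with spike-in scaling and 27 and 184 with total miRNA scaling. In deletion clones these were 38 and 27, 17 and 85, and 23 and 86.

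Whether the knockdown acted differently in the genotypes was tested as an interaction, and no row passed. The interaction, the knockdown's log2 fold change in deletion minus that in wild-type clones, was 0.59 ± 0.18 (SE) for mir-374b (unadjusted p = 0.00463, adjusted p = 0.134 by edgeR) and 0.53 ± 0.19 (SE) for mir-421 (unadjusted p = 0.0140, adjusted p = 0.196 by edgeR). Of 667 rows 0 passed in edgeR, with 127 at an unadjusted p under 0.05 and 19 past the adjusted threshold in DESeq2. DESeq2 gave mir-374b an interaction of 0.64 (adjusted p = 0.0187), while with spike-in scaling it was 0.19 (edgeR adjusted p = 0.857). For mir-374a the interaction was 0.10, with a 95% interval from -0.34 to 0.55, and for mir-545 it was -0.32, with an interval from -1.24 to 0.60. The mir-545 value was -0.037 without wild-type clone 57, -0.064 without clone 67, -0.64 without clone 52 and -0.78 without clone 55.

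Removal of the ERH binding site with ERH present was compared under control shRNAs. mir-421 was lower in deletion clones, at 255.95 ± 55.4 CPM (SD, n = 4) against 436 ± 161 CPM (SD, n = 4). The log2 fold change was -0.87 ± 0.28 (SE) or 0.545 of the wild-type level (edgeR adjusted p = 0.0381). The genotypes overlapped, since wild-type clone 57 was at 231 CPM and deletion clones reached 337 CPM, as did those of the other 3 rows, while 28.7% of all rows had genotypes that did not overlap. In this comparison 25.9% of 536 rows passed, 18.8% higher and 7.09% lower, and mir-421 was the only 1 of the 4. The call was close to the threshold. It was lost without deletion clone 30, 42 or 43 and without wild-type clone 52, 55 or 67, with log2 fold changes from -0.95 to -0.67 and edgeR adjusted p from 0.0501 to 0.126. It was also lost with either control shRNA alone (-0.72 and -1.03), with spike-in scaling (-0.42, adjusted p = 0.583), with total miRNA scaling (-0.45, 0.364) and with a mean of at least 100 counts (-0.71, 0.0963). Over all rows, 101 were higher and 38 lower with TMM, 134 and 0 with spike-in scaling and 154 and 4 with total miRNA scaling.

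The other rows gave no call for the deletion. mir-374b was at 834 ± 98.0 CPM in deletion and 1012 ± 365 CPM in wild-type clones (SD, n = 4). Its log2 fold change was -0.39 ± 0.27 (SE) with a 95% interval from -0.98 to 0.20 (edgeR adjusted p = 0.303). mir-374a was at 4855 ± 963 CPM in deletion and 4162 ± 1772 CPM in wild-type clones (SD, n = 4). Its log2 fold change was 0.10 with an interval from -0.51 to 0.72. After the GC correction mir-374a was at -0.65 (edgeR adjusted p = 0.0537). mir-545 was at 28.4 ± 5.02 and 22.7 ± 13.2 CPM (SD, n = 4). Its log2 fold change was 0.21 with an interval from -0.73 to 1.15. Without wild-type clone 57 the log2 fold changes of mir-374a and mir-545 were both -0.016. Without that clone mir-374b was at -0.53 (edgeR adjusted p = 0.0823).

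With ERH shRNAs in both genotypes none of the 4 rows passed, and 0 of 569 rows did in edgeR, with 87 at an unadjusted p under 0.05 and 11 past the adjusted threshold in DESeq2. The log2 fold changes of deletion against wild type were -0.38 ± 0.28 (SE) for mir-421, 0.19 ± 0.24 (SE) for mir-374b, 0.20 ± 0.24 (SE) for mir-374a and -0.024 ± 0.30 (SE) for mir-545. Without wild-type clone 57 they were -0.54, 0.027, 0.074 and -0.086 in the same order. The genotypes overlapped in all 4 rows, while 10.2% of all rows did not overlap. The range of mir-374b was between 452 and 494 CPM in deletion and 244 to 534 CPM in wild-type clones, and that of mir-545 between 22.2 and 22.9 CPM and 16.9 to 34.8 CPM. A difference in spread was not tested.

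Both perturbations together were set against neither, that is deletion clones with ERH shRNAs against wild-type clones with control shRNAs. mir-374b was at 476 ± 17.9 CPM against 1012 ± 365 CPM (SD, n = 4). Its log2 fold change was -1.12 ± 0.26 (SE, edgeR adjusted p = 0.00403). mir-421 was at 189 ± 40.7 CPM against 436 ± 161 CPM (SD, n = 4). Its log2 fold change was -1.23 ± 0.27 (SE, edgeR adjusted p = 0.00321). The groups overlapped in both rows through wild-type clone 57 alone, whose control levels of 489 and 231 CPM lay inside the ranges of the doubly perturbed clones, while 41.4% of all rows did not overlap. Here 46.8% of 553 rows passed, 30.4% higher and 16.5% lower. mir-374a was at -0.18 ± 0.27 (SE, edgeR adjusted p = 0.589) and mir-545 at -0.037 ± 0.42 (SE, edgeR adjusted p = 0.942), and without clone 57 they were at -0.39 and -0.34. The second-pair calls were lost with spike-in scaling, at -0.58 and -0.64 (edgeR adjusted p of 0.208 and 0.146), and with total miRNA scaling, at -0.62 and -0.73 (0.0747 and 0.0649). After the GC correction mir-374a passed as well, at -0.996 (edgeR adjusted p = 0.00346). Over all rows 168 were higher and 91 lower with TMM, 238 and 20 with spike-in scaling and 231 and 24 with total miRNA scaling. This comparison shares its control sums with the deletion comparison and its ERH sums with the knockdown in deletion clones.

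**Figure D2:**
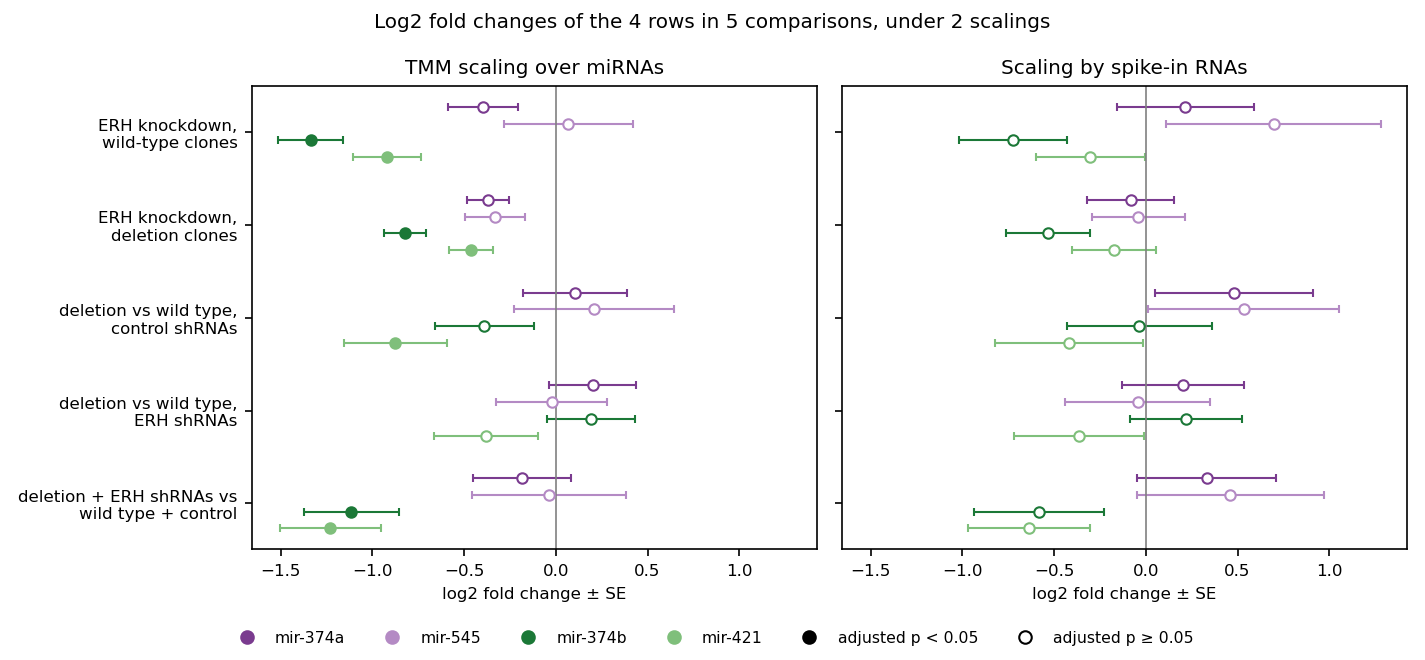
Log2 fold changes with SE (edgeR) of the 4 FTX rows in 5 comparisons, with TMM scaling on the left and spike-in scaling on the right, filled where the adjusted p was under 0.05. With TMM the filled points are mir-374b and mir-421, the second pair, and with spike-in scaling every point is open and lies higher or at about the same place. The knockdown in 8 clones is not drawn. There mir-374a passed too with TMM (edgeR adjusted p = 0.00813), and mir-374b still passed with spike-in scaling (-0.63, edgeR adjusted p = 0.00949).

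As a background, control shRNA 2 against control shRNA 1 gave log2 fold changes of -0.17, -0.13, -0.025 and 0.0063 for mir-374a, mir-545, mir-374b and mir-421. None of these passed, and 0 of 571 rows did in edgeR, with 48 at an unadjusted p under 0.05 and 1 past the adjusted threshold in DESeq2.

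Ratios of 2 rows within a sum need no library scaling and were tested per clone by exact permutation. Across the pairs, mir-374b counts per 100 mir-374a counts were 24.9, 21.0, 23.0 and 30.3 in wild-type clones 52, 55, 57 and 67 under control shRNAs and 16.9, 12.01, 11.2 and 11.9 under ERH shRNAs. In deletion clones 30, 34, 42 and 43 they were 13.4, 21.5, 20.7 and 15.1 under control and 11.7, 12.6, 13.0 and 13.6 under ERH shRNAs. Clone 57, which stood apart in level, lay among the other wild-type clones in this ratio. The knockdown changed the log2 ratio by -0.69 ± 0.40 (SD, n = 8), downward in 8 of 8 clones (exact sign-flip permutation test, two-sided, p = 0.00781, the smallest that flipping the signs of 8 clones can give, adjusted p = 0.0938 over 12 tests). Without the clone block, by exact permutation of the arms, the adjusted p was 0.0131. That test treats the paired sums of a clone as independent and has more arrangements than the sign flips, so its pass is not stronger evidence. Wild-type clones changed by -0.94 ± 0.33 (SD, n = 4) and deletion clones by -0.45 ± 0.32 (SD, n = 4). These changes differed by 0.49 (exact permutation test, p = 0.114, adjusted p = 0.229). The deletion under control shRNAs changed the log2 ratio by -0.50 (exact permutation p = 0.0571, adjusted p = 0.171), from -2.02 ± 0.23 to -2.53 ± 0.34 (SD, n = 4). Under ERH shRNAs the genotypes were at -2.96 ± 0.27 and -2.98 ± 0.09 (SD, n = 4; exact permutation p = 0.943).

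Within the second pair, mir-421 counts per 100 mir-374b counts were 48.3, 29.2, 47.2 and 52.6 in wild-type clones 52, 55, 57 and 67 under control shRNAs and 58.1, 44.7, 57.4 and 74.9 under ERH shRNAs. In deletion clones 30, 34, 42 and 43 they were 33.9, 40.2, 26.8 and 23.4 under control and 30.5, 52.8, 42.8 and 33.4 under ERH shRNAs. The log2 ratio was 0.39 ± 0.26 (SD, n = 8) higher under ERH shRNAs, and higher in 7 of 8 clones, all but deletion clone 30 (exact permutation by sign flips, p = 0.0156, adjusted 0.0938). The difference of deletion from wild type was -0.51 under control shRNAs (exact permutation p = 0.0857, adjusted p = 0.206) and -0.57 under ERH shRNAs (exact permutation p = 0.0571, adjusted p = 0.171). The interaction was -0.061 (exact permutation p = 0.857, adjusted p = 0.935).

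Within the first pair, mir-545 counts per 100 mir-374a counts lay between 0.283 and 0.902 in all 16 sums, and between 0.518 and 0.700 in the 8 sums of the deletion clones. The log2 ratio changed by 0.28 ± 0.59 (SD, n = 8) with the knockdown, upward in 6 of 8 clones (exact permutation by sign flips, p = 0.273, adjusted 0.469). Wild-type clone 57 alone moved by 1.56, and without it the mean change was 0.10. The deletion changed the ratio by 0.27 under control shRNAs (exact permutation p = 0.457, adjusted p = 0.549) and by -0.21 under ERH shRNAs (exact permutation p = 0.371, adjusted p = 0.533), with an interaction of -0.48 (exact permutation p = 0.400, adjusted p = 0.533). Without clone 57 these 3 values were 0.0078, -0.13 and -0.14. None of the 12 tests of ratios passed after adjustment, but these tests could hardly pass. The sign-flip test at its smallest p of 0.00781 had an adjusted p of 0.0938, so 1 such test alone cannot pass. For comparisons of genotypes the 70 arrangements cannot give a p below 0.0286. These could pass only if most of the 12 tests had a p that low.

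**Figure D3:**
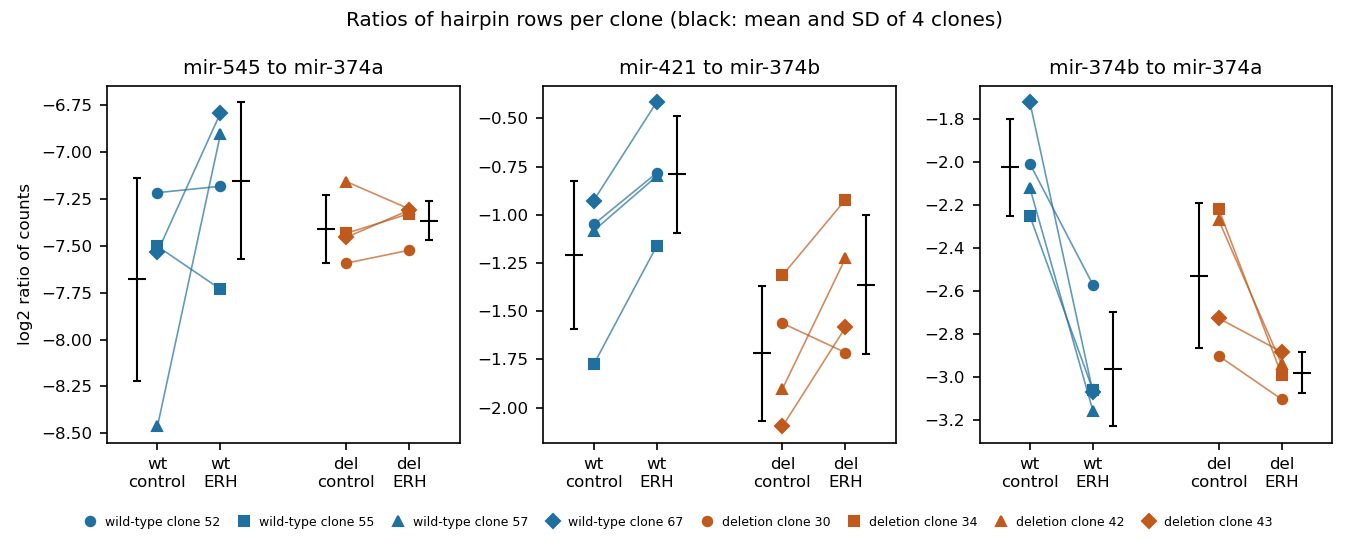
Log2 ratios of counts (0.5 added to each) for mir-545 to mir-374a, mir-421 to mir-374b and mir-374b to mir-374a in each clone under control and ERH shRNAs, with the mean and SD of 4 clones in black. The ratio of mir-374b to mir-374a was lower under ERH shRNAs in 8 of 8 clones, and that of mir-421 to mir-374b was higher in 7 of 8.

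A further row, mir-374c, is annotated on the opposite strand at 74218549 to 74218618, over the mir-374b hairpin. Of miR-374b-5p and miR-374c-5p, 20 aligned bases were all identical with a shift of 2 bases, so reads could have been split between these rows, and how the counting dealt with this is not given in the sources used here. The mir-374c row held 0 to 32 reads per library and the mir-374b row 543 reads or more.

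Rows with the most similar profile were sought among 368 others with a mean of at least 10 CPM, by Pearson's r of log2 CPM over the 16 sums, which share clones and arms. For mir-545 the closest row was its neighbour mir-374a, at r of 0.79, followed by the X-linked mir-424 and mir-450a at 0.75 and 0.74. For mir-374a they were mir-450a (0.84), let-7f (0.81) and mir-545 (0.79). For mir-374b they were 3 other X-linked rows, mir-502 (0.89), mir-532 (0.88) and mir-98 (0.84), with its neighbour mir-421 in place 10 at 0.73. For mir-421 they were mir-532 (0.86), mir-1306 (0.80) and mir-15b (0.79), with mir-374b in place 6. Between the pairs r was 0.72 for mir-374a with mir-374b and 0.31 for mir-374a with mir-421.

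The same contrasts were counted for 2 lists of other hairpins, chosen with earlier results of these data known. Only TMM scaling was used for these counts. Over all rows the knockdown gave 134 higher and 110 lower calls with TMM. Spike-in scaling gave 233 and 22, and total miRNA scaling 210 and 36, so the list counts hold for TMM only. Of 20 X-linked hairpins with a neighbour within 10 kb, 19 were tested for the knockdown, of which 9 were lower and 0 higher, where 16.5% of all rows were lower and 20.1% higher, with a median log2 fold change of -0.33 against 0.061 over all rows. Among these were mir-502 at -1.34 and mir-532 at -0.97, both of the CLCN5 cluster. Of 6 tested X-linked hairpins without such a neighbour 0 passed. Of 23 hairpins of other 2-hairpin transcripts 15 were lower and 0 higher, with a median of -0.53. As examples picked for unlike values within a pair, mir-425 was at -1.27 and mir-191 at -0.34, and mir-212 at -2.01 and mir-132 at -0.15. These differences were not tested, and the other pairs of the list are not shown. For the deletion under control shRNAs 1 of 19 X-linked neighbours and 5 of 23 hairpins of 2-hairpin transcripts were lower and 0 higher, where 7.09% of all rows were lower and 18.8% higher, with medians of -0.15 and -0.47 against -0.033 over all rows.

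**Figure D4:**
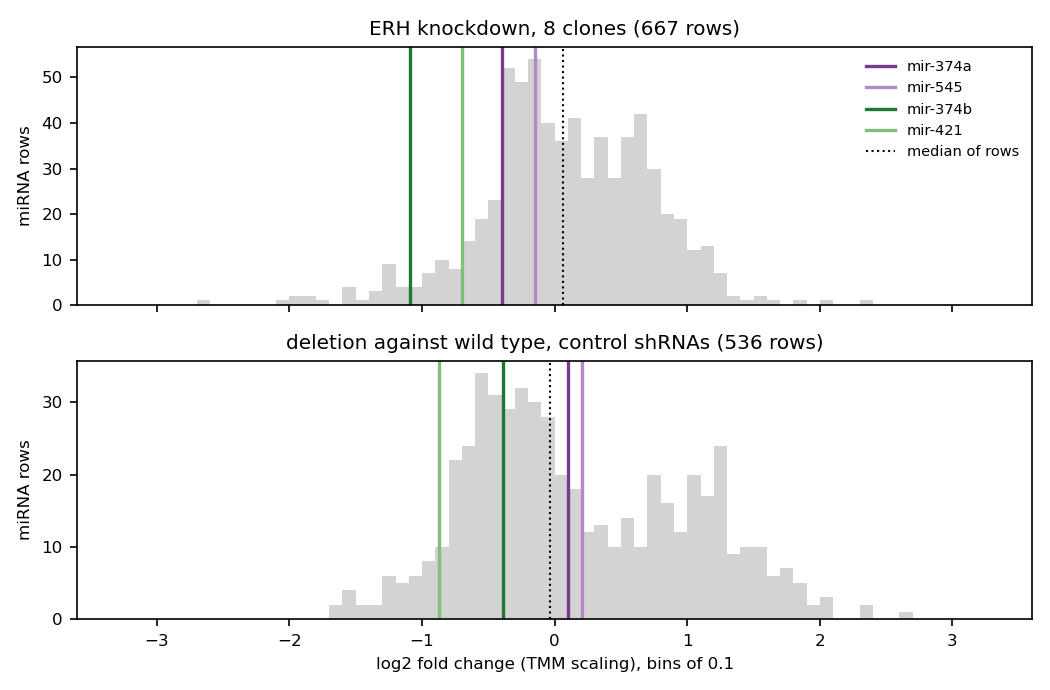
Histograms of log2 fold changes (TMM scaling, bins of 0.1) over all rows tested for the knockdown in 8 clones (667 rows, top) and the deletion under control shRNAs (536 rows, bottom), with the 4 FTX rows as coloured lines and the median of the rows dotted. In the knockdown mir-374b at -1.09 and mir-421 at -0.70 lie in the lower tail, where 4.35% and 8.25% of rows are lower still, and in the deletion only mir-421 does, with 6.90% of rows below it.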

How the data were processed

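The deposited table holds whole-number read counts of miRNA precursor rows and spike-in RNAs, 1 column per library, per the file headers. Both arms of a hairpin share a row. The 4 reference RNAs went into 400 ng of each RNA, of which 100 ng entered the QIAseq miRNA kit, per the labels' protocols. The submitters' processing notes name SAMtools; the aligner, annotation, build and use of molecular identifiers are not given in the sources used here, so counts may include amplification copies and intervals may be too narrow. Members and lists were chosen with earlier results of these data known. No replicate pair in a group was a copy (48 pairs, chi-square of at least 75.4 per degree of freedom).

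The clone was the replicate, and p-values measure the spread between clones of 1 line. With the clone as a block, this is the spread of the change within clones, and for genotypes that of the levels. Sums were tested with edgeR 4.0.16 (R 4.3.3; filterByExpr on the design, TMM over miRNA rows), with the clone as a block for the knockdown and the interaction; an adjusted p under 0.05 was a call. The labels give each clone all 4 vectors, and a clone's control and ERH sums deviated together (r from 0.42 to 0.86 over 314 miRNAs). Log2 CPM used a prior count of 2, and ratios added 0.5 to each count. Named rows were the 4 members, mir-374c, the 3 most similar rows of each member and the rows of 2 lists. The fits were tested on simulated data with equal numbers of rows doubled and halved. This keeps the assumption of TMM, so the choice of scaling was not tested by it. Positions, GC content and RNAfold 2.7.2 energies came from GENCODE 29 (1454 rows matched), and sequences from RefSeq, which held a hairpin or mature sequence for each member but not miR-374a-5p or the MIR545 hairpin. Alternatives were DESeq2 1.42.0, spike-in or total miRNA scaling, filtering on a mean of 100 counts or not at all, a loess GC correction, no replicate block, single shRNAs and leaving out each clone.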

Additional observations from a re-analysis of the deposited data

Results flagged for a closer look

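In 28 groups of 4 clones (4 rows and 3 ratios in 4 groups each), 3 held a clone whose gap to its nearest neighbour passed Dixon's critical value, relative to the group's range, where chance gives about 1 in 20. Deletion clone 30 was highest for mir-374a under ERH shRNAs, at 4159 CPM against 3590 to 3643 CPM in the other 3 deletion clones. In the same clone and arm the log2 ratio of mir-545 to mir-374a was lowest, at -7.52. Wild-type clone 52 had the highest log2 ratio of mir-374b to mir-374a under ERH shRNAs, at -2.57, against -3.15 to -3.06 in the other 3 wild-type clones.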

How the results depend on the processing

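Of 28 results (4 rows in 7 comparisons) 10 were past the threshold, and over their 151 alternatives 116 kept direction and call, 34 kept the direction only and 1 reversed. The fall of mir-374b with the knockdown in 8 clones passed in each of its 17 alternatives, from -1.19 to -0.63. Results under the threshold reversed more often, and the cause was not tested.

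Counts of rows called, against 244 for the knockdown in 8 clones, were 148 with a mean of at least 100 counts, 37 with no replicate block, 117 with shRNA 2 alone and 159 to 230 leaving out 1 clone (lowest without wild-type clone 55). Against 192 in wild-type clones they were 124, 94 and 20 under those settings and 112 to 197 (112 without clone 57, 126 without 55). Against 65 in deletion clones they were 102 with spike-in and 109 with total miRNA scaling, 13 with no replicate block, 19 with shRNA 2 alone and 30 to 119 (30, 38 and 119 without clones 30, 42 and 34). Against 139 for the deletion under control shRNAs they were 76 with a mean of at least 100, 35 with shRNA 2 alone and 83 to 129 (lowest without deletion clone 34). Against 0 under ERH shRNAs they were 11 in DESeq2, 1 with no filter and 0 to 1. Against 259 for both together the count was 134 with a mean of at least 100. Against 0 for the interaction they were 19 in DESeq2, 29 with total miRNA scaling, 19 with no filter, 29 with a mean of at least 100, 30 with shRNA 1 alone and 0 to 35 (35 without wild-type clone 52). Against 0 between the control shRNAs the count was 1 in DESeq2 and 1 with a mean of at least 100.

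Log2 fold changes reversed as follows. With spike-in scaling mir-374a and mir-545 were at 0.061 and 0.29 for the knockdown in 8 clones and 0.33 and 0.46 for both together, and mir-374a at 0.21 for the knockdown in wild-type clones and -0.30 for the interaction. With total miRNA scaling mir-545 was at 0.12 for the knockdown in 8 clones, 0.22 for the deletion under ERH shRNAs and 0.46 for both together, mir-374a at 0.32 for both together and -0.12 for the interaction, and mir-374b at 0.032 for the deletion under control shRNAs. With the GC correction mir-374a was at -0.65 for the deletion under control and -0.072 under ERH shRNAs, and mir-545 at -0.12 for the knockdown in wild-type clones and -0.020 for the deletion under control shRNAs. For mir-545 in wild-type clones the knockdown was -0.043 in DESeq2, -0.051 with no replicate block and -0.27 with shRNA 2 alone. With shRNA 2 alone mir-545 was at 0.014 for the knockdown in deletion clones, -0.17 and 0.17 for the deletion under control and ERH shRNAs and 0.23 for the interaction, and mir-374a at -0.052 for the deletion under control shRNAs. With a mean of at least 100 counts mir-545 was at 0.018 for the deletion under ERH shRNAs and 0.10 for both together, and mir-374a at -0.050 for the interaction. With shRNA 1 alone mir-545 was at 0.039 for both together and mir-374a at -0.22 for the interaction, which was -0.038 with no filter.

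The ratio of mir-374b to mir-374a changed by -0.69 with the knockdown with and without the replicate block, and passed the threshold only without it, where the pairing within clones is ignored. With shRNA 1 alone it was at 0.093 for the deletion under ERH shRNAs. With shRNA 2 alone that of mir-545 to mir-374a was at -0.089 for the deletion under control shRNAs and that of mir-421 to mir-374b at 0.073 for the interaction.

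Leaving out 1 clone gave -0.30 to 0.46 for mir-545 with the knockdown in wild-type clones, -0.14 to 0.30 for the deletion under ERH shRNAs, -0.016 to 0.48 under control shRNAs, -0.34 to 0.27 for both together and -0.78 to -0.037 for the interaction. For mir-374a it gave -0.016 to 0.36 for the deletion under control shRNAs, -0.39 to 0.12 for both together and -0.093 to 0.22 for the interaction. The ratios of mir-421 to mir-374b (interaction) and mir-374b to mir-374a (deletion under ERH shRNAs) ranged from -0.17 to 0.11 and from -0.080 to 0.12. Depth limits mir-545 most, with 6 reads in its lowest library.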
